A study of Mus musculus with 4 samples.

Results

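The 9 genes described here encode the transcriptional arm of the Hippo pathway and a set of its targets: Yap1, Wwtr1 (TAZ), Tead1, Tead4, Ankrd1, Amotl2, Ajuba, Axl and Lats2. They were chosen by gene symbol, and each matched 1 of the 30360 genes of the count table. The data are single-cell RNA profiles of mouse colonic organoids, cultures grown in a gel from the distal colon of wildtype (WT) mice and mice lacking TNF receptor 2 (Tnfr2-/-), all labelled as 16 weeks old. Cultures at passage 5 were left untreated (labelled vehicle) or kept in 20 ng/ml of the cytokine TNF between day 1 and day 6, and every culture was harvested on day 7. The study's methods give several mice per genotype for each experiment with such cultures, but not which of them gave these libraries, and they give a younger age than the labels. Each of the 4 combinations has 1 library, and the values of a gene are given in the order WT untreated, WT TNF, Tnfr2-/- untreated, Tnfr2-/- TNF. Tnfr2-/- is a whole-body knockout, so both the epithelium and the mesenchymal cells that the cultures still hold carry it. No group has a replicate, so no test was made, differences below are between single cultures, no p-value is given, and every interval covers the counting error of unique molecular identifiers (UMIs) only.

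YAP and TAZ are coactivators that bind no DNA themselves. When the kinases LATS1 and LATS2 phosphorylate them they are held in the cytoplasm or degraded, and when the kinases are inactive they enter the nucleus and bind TEAD proteins, which contact DNA. In the gut epithelium YAP is known for its part in regeneration after injury. RNA levels of Yap1 or Tead1 do not report this activity, which is regulated at the protein level, and for that reason target genes such as Ankrd1, Ajuba, Amotl2 and Axl are commonly read in their place.

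The TEAD proteins recognise the letters GGAATG, or CATTCC read on the other strand. RefSeq promoter windows on GRCm38.p6, of 250 bases before and 50 bases after an annotated start, existed for 7 of the 9 genes, all but Tead1 and Tead4. All 7 held at least 1 match on either strand, whereas 16.6% of the 27025 genes with a window did. This is a description of letters in a window and not of binding. The stretches that hold the matches upstream of a start are given because the targets' levels are read below as a group. They run 5′ to 3′ on the strand of the gene, with the 6 matching letters in capitals.
Ankrd1, chr19:36120032-36120071, minus strand, match at base 210 before the start: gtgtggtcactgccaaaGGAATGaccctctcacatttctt
Ankrd1, chr19:36119945-36119984, minus strand, match at base 123 before the start: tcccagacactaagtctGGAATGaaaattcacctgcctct
Ajuba, chr14:54577803-54577864, minus strand, matches at bases 186 and 164 before the start: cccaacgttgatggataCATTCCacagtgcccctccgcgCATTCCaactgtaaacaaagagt
Amotl2, chr9:102717722-102717761, plus strand, match at base 65 before the start: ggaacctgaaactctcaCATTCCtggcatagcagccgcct
Axl, chr7:25788944-25788983, minus strand, match at base 233 before the start: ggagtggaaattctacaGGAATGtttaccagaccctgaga
Wwtr1, chr3:57576024-57576063, minus strand, match at base 136 before the start: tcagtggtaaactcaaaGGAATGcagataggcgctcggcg
Yap1, chr9:8004715-8004754, minus strand, match at base 141 before the start: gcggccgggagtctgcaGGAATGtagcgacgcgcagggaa
Wwtr1 has a second annotated start, from which the same site lies 170 bases away. Of the 2 windows of Lats2, 1 held a match, at base 5 after the start, and the other held none. Of 12 other YAP and TEAD targets with a window, 2 held a match (16.7%), near the share of all genes, and of 24 other Hippo pathway genes 10 did (41.7%).

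The libraries held 980 to 2589 cells and 44547639 to 87228093 UMIs. The deposited annotation placed 4172 of the 6155 cells in 7 epithelial classes and 1948 in 4 mesenchymal classes, and 35 cells had no class. Defining epithelial markers summed to 11566 to 14415 CPM (UMIs scaled to the same total in every sum) in epithelium and 141 to 814 CPM in mesenchyme, and mesenchymal markers to 5.29 to 23.2 CPM in epithelium and 9233 to 15785 CPM in mesenchyme. Summed endothelial, smooth muscle and glial markers stayed at 2.61 CPM or less in every sum. The immune markers reached 12.5 CPM in epithelium and 16.6 CPM in mesenchyme, both in Tnfr2-/- TNF. Nearly all of this was Cd68, at 12.4 and 16.6 CPM, while Ptprc had 0 UMIs in both sums. Tnfrsf1b, the gene knocked out, still had 2.06 and 7.59 CPM in the Tnfr2-/- libraries against 9.83 and 14.0 CPM in WT. Which part of the gene the allele lacks is not stated, and a 3′ tag outside that part does not check the genotype. The class mix of the libraries differed, with Progenitor.2 holding 5.50%, 23.5%, 22.8% and 83.4% of the epithelial cells and Progenitor.1 48.4%, 28.8%, 63.2% and 11.1%. Of the mesenchymal cells, a class named after Ifitm1 held 62.4% in WT untreated and at most 1.11% elsewhere, and a class named after Ptges held 2.38%, 99.3%, 41.1% and 100%. A level summed over a compartment does not separate the mix of its classes from the level within each class.

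Both coactivator genes were detected in both compartments, with Wwtr1 much higher in mesenchyme. Yap1 (ENSMUSG00000053110, chromosome 9) stood at 18.7 (95% Poisson interval 17.6 to 20.0), 25.3 (23.8 to 26.8), 31.1 (29.6 to 32.7) and 31.9 (30.1 to 33.7) CPM in the epithelium. It was lowest in WT untreated, and the 2 Tnfr2-/- libraries did not differ beyond counting error. In mesenchyme Yap1 was 41.8 (39.7 to 44.0), 50.1 (46.6 to 53.9), 45.0 (36.5 to 54.9) and 37.3 (32.0 to 43.2) CPM. Wwtr1 (ENSMUSG00000027803, chromosome 3) had 3.42 (2.93 to 3.97), 3.75 (3.18 to 4.39), 6.57 (5.89 to 7.32) and 11.1 (10.1 to 12.2) CPM in epithelium. In mesenchyme it reached 117 (114 to 121), 96.7 (91.7 to 102), 117 (103 to 132) and 115 (105 to 125) CPM, which is 10.3 to 34.3 times the epithelial level of the same library. Summed over a compartment, Wwtr1 therefore differed little between libraries in mesenchyme and over 3-fold between the lowest and highest library in epithelium. Within the class named after Ptges it was less even, with 143 (106 to 189), 97.0 (92.0 to 102), 73.3 (56.0 to 94.1) and 115 (105 to 125) CPM.

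**Figure D1:**
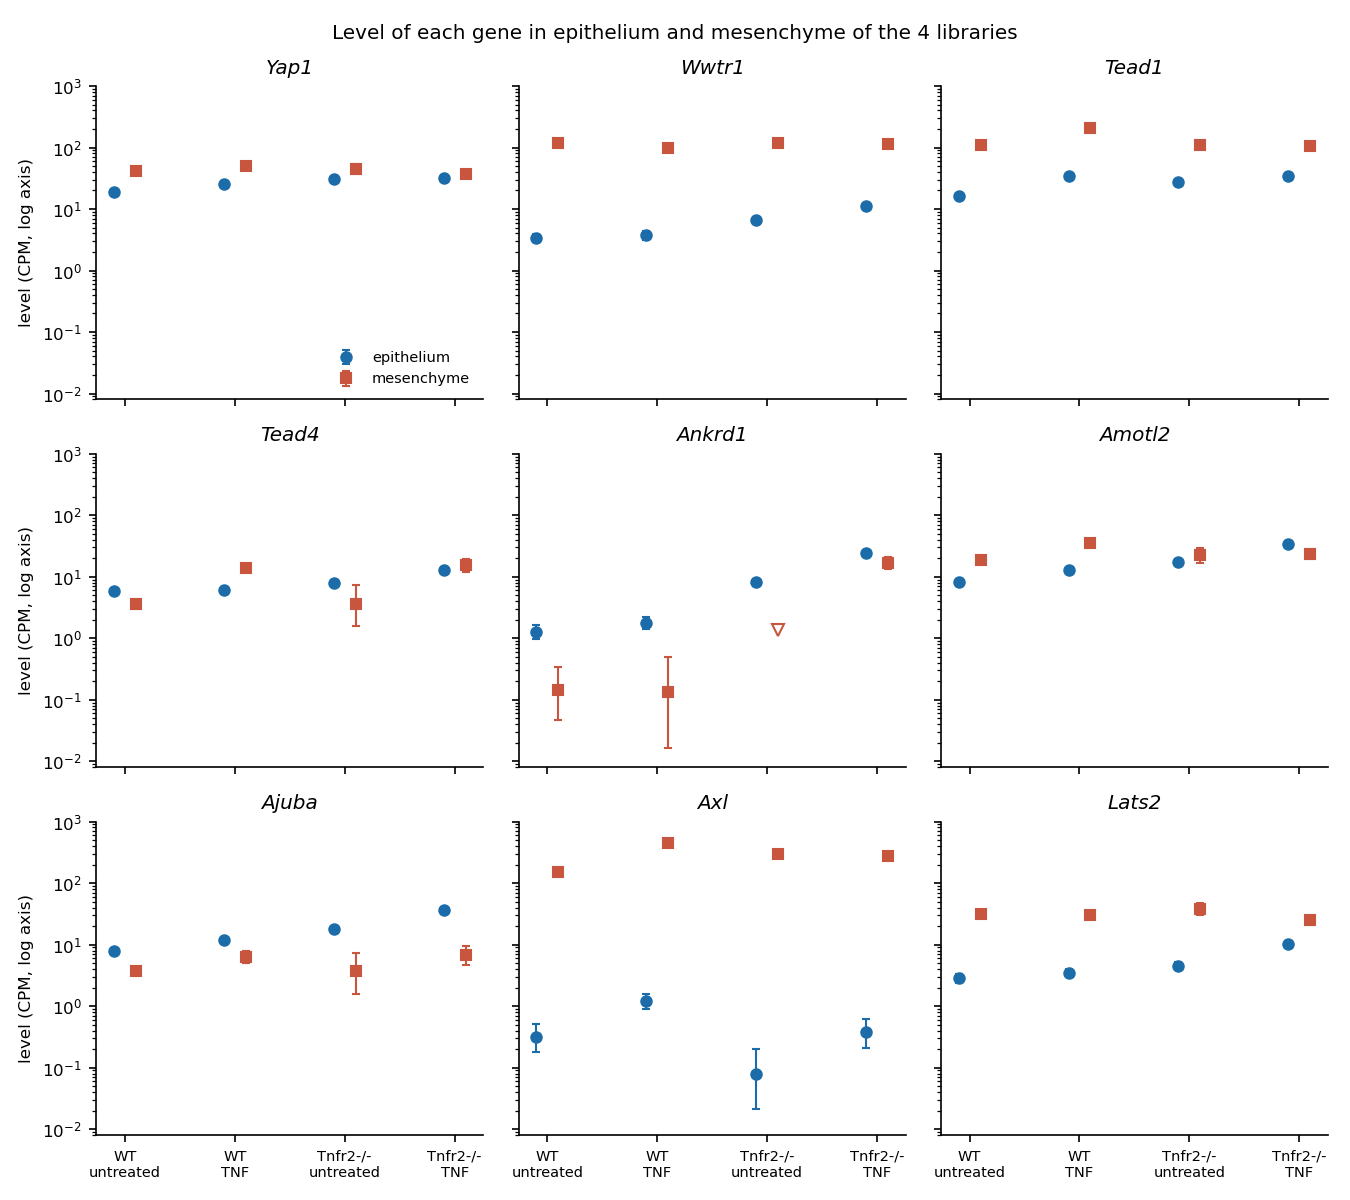
Level of each of the 9 genes in CPM (log axis) in the epithelium (circles) and mesenchyme (squares) of the 4 libraries, with 95% Poisson intervals. The open triangle marks a sum with 0 UMIs and is drawn at the level of 3 counts. Axl, Wwtr1, Tead1 and Lats2 lie higher in mesenchyme in all 4 libraries, Ajuba lies higher in epithelium, and the epithelial levels of Wwtr1, Ankrd1, Amotl2, Ajuba and Lats2 are highest in Tnfr2-/- TNF.

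Of the TEAD genes, which encode the DNA-binding partners, Tead1 was higher in mesenchyme in every library and Tead4 was not. Tead1 (ENSMUSG00000055320, chromosome 7) had 16.3 (15.2 to 17.4), 34.3 (32.6 to 36.1), 27.5 (26.1 to 29.0) and 34.6 (32.8 to 36.5) CPM in epithelium. In mesenchyme it had 110 (107 to 114), 211 (204 to 219), 108 (94.6 to 123) and 104 (95.4 to 114) CPM. WT TNF was thus the only library of the 4 in which mesenchymal Tead1 stood off from the rest, at 1.92 times the WT untreated level (interval 1.83 to 2.01), while the Tnfr2-/- ratio was 0.967 (0.826 to 1.13). Tead4 (ENSMUSG00000030353, chromosome 6) was 5.92 (5.27 to 6.63), 6.09 (5.36 to 6.89), 7.90 (7.14 to 8.71) and 13.1 (12.0 to 14.2) CPM in epithelium. In mesenchyme Tead4 reached 3.62 (3.02 to 4.31), 14.1 (12.3 to 16.2), 3.67 (1.59 to 7.24) and 15.5 (12.2 to 19.5) CPM. Mesenchymal Tead4 was higher with TNF in both genotypes, 3.91-fold in WT (3.12 to 4.91) and 4.22-fold in Tnfr2-/- (2.03 to 10.1), the latter against 8 UMIs in the untreated library.

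Among the targets, Ankrd1, which encodes a muscle-type ankyrin repeat protein, showed the widest epithelial range. Ankrd1 (ENSMUSG00000024803, chromosome 19) had 1.27 (0.979 to 1.62), 1.79 (1.41 to 2.25), 8.11 (7.35 to 8.94) and 24.0 (22.5 to 25.6) CPM in epithelium. Tnfr2-/- was higher than WT by 6.38-fold untreated (4.89 to 8.44) and by 13.4-fold with TNF (10.6 to 17.2). Genes of chromosome 19 as a whole were also higher in Tnfr2-/- epithelium, with a median difference of log2(CPM + 1) of 0.53 untreated and 0.34 with TNF over 237 genes tested, against 0.10 and -0.12 over all 5663 genes tested. The part of that offset in the Ankrd1 values was not tested.

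The UMIs of Ankrd1 came from few cells. They lay in 15 of 1128, 21 of 1163, 83 of 1023 and 156 of 858 epithelial cells, and the single richest cell held 26, 35, 49 and 163 of them. Without that 1 cell the epithelial levels were 0.756, 0.946, 7.18 and 20.0 CPM, in the same order of libraries. Counts clustered in this way vary more than a Poisson interval allows. In mesenchyme Ankrd1 had 5, 2, 0 and 80 UMIs, and the 80 UMIs of Tnfr2-/- TNF lay in 5 of 122 cells, with 59 in 1 cell. In those 5 cells epithelial markers took a median of 0.515% of UMIs, against 0.00726% in the other mesenchymal cells and 1.21% in the epithelial cells of that library. The share of epithelial marker RNA found in that mesenchyme (5.65%) would carry 1.36 CPM of Ankrd1, where 16.8 CPM were measured, or 4.48 CPM without the richest cell. That share is an average over the compartment and cannot speak to 5 single cells. The part of epithelial RNA in them was not tested.

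Ajuba and Amotl2, which encode a LIM-domain scaffold that binds LATS kinases and an angiomotin that binds YAP, were ordered alike over the libraries in the epithelium. Ajuba (ENSMUSG00000022178, chromosome 14) had 7.95 (7.19 to 8.77), 12.0 (11.0 to 13.1), 18.0 (16.9 to 19.3) and 36.6 (34.7 to 38.5) CPM. Amotl2 (ENSMUSG00000032531, chromosome 9) had 8.34 (7.57 to 9.18), 12.7 (11.6 to 13.8), 17.2 (16.1 to 18.4) and 34.6 (32.8 to 36.5) CPM. For both, the 4 libraries stood in the same order with intervals that did not overlap. In mesenchyme Ajuba was lower, with 3.65 (3.04 to 4.34), 6.32 (5.10 to 7.75), 3.67 (1.59 to 7.24) and 6.71 (4.59 to 9.47) CPM. Mesenchymal Amotl2 had 18.7 (17.3 to 20.2), 34.8 (31.9 to 38.0), 22.5 (16.7 to 29.8) and 23.9 (19.7 to 28.7) CPM, highest in WT TNF as for Tead1.

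Axl, a receptor tyrosine kinase whose ligand is GAS6, was a mesenchymal gene in these cultures. Axl (ENSMUSG00000002602, chromosome 7) had 154 (149 to 158), 445 (435 to 456), 291 (269 to 315) and 273 (258 to 288) CPM in mesenchyme. With TNF it was 2.90 times the untreated level in WT (2.80 to 3.01) and 0.937 times that level in Tnfr2-/- (0.851 to 1.03). In epithelium it had 16, 50, 4 and 15 UMIs, or 0.318, 1.21, 0.0790 and 0.377 CPM. The share of mesenchymal marker RNA found in epithelium would carry 0.142, 1.03, 0.106 and 0.230 CPM of Axl into it. Of the 50 epithelial UMIs in WT TNF, 31 lay in the class Secretory-Reg4-Ang4, whose 246 cells had a median of 1957.5 UMIs.

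Lats2 (ENSMUSG00000021959, chromosome 14), the kinase gene that is also induced by YAP, was a further gene with a mesenchymal excess. It had 30.8 (29.0 to 32.7), 29.8 (27.1 to 32.7), 38.1 (30.4 to 47.3) and 24.7 (20.5 to 29.6) CPM in mesenchyme and 2.84 (2.39 to 3.35), 3.46 (2.91 to 4.07), 4.52 (3.95 to 5.15) and 10.0 (9.07 to 11.1) CPM in epithelium.

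Genes were counted as different between 2 conditions where log2(CPM + 1) differed by at least 1, a 2-fold difference, in the same direction in every pair of libraries compared, with at least 20 CPM in 1 library of each pair. Between mesenchyme and epithelium, 5 of the 9 genes reached that minimum in all 4 libraries, and 4 were higher in mesenchyme: Wwtr1, Tead1, Axl and Lats2. None was lower. Over all 5868 genes tested, 14.8% were higher and 10.4% lower in mesenchyme. Wwtr1, Axl and Lats2 reached the minimum only through the mesenchyme. This fixed the direction of their difference, though not its size, so the count of 4 was not read further. Yap1, the fifth, was higher in mesenchyme by 2.23, 1.98, 1.45 and 1.17 times, the last with an interval of 0.995 to 1.37. Ajuba was below the minimum and was lower in mesenchyme by ratios of 0.459, 0.526, 0.204 and 0.183.

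Within the epithelium, 6 of the 9 genes were higher in the class Progenitor.2 than in Progenitor.1 in each of the 4 libraries, beyond counting error. Of the 9150 genes with at least 5 CPM in 1 class of each library, 20.2% met the same condition. Of the 9 genes, 8 reached that minimum. Wwtr1, Ankrd1 and Lats2 reached it only through Progenitor.2 in every library, and Tead4 did so in WT TNF. Such genes had to be higher in Progenitor.2, so the count of 6 was not read further. The deposited annotation gave these classes from clusters built on the whole transcriptome, so the values describe the classes and test nothing. The 6 were Wwtr1, Tead4, Ankrd1, Amotl2, Ajuba and Lats2. Ankrd1 had 29.8, 5.05, 32.9 and 27.9 CPM in Progenitor.2 and 0.507, 0.493, 2.31 and 2.54 CPM in Progenitor.1. Wwtr1 had 15.5, 7.96, 19.8 and 12.5 CPM in Progenitor.2 and 4.52, 1.64, 3.65 and 3.51 CPM in Progenitor.1, ratios of 3.42, 4.85, 5.42 and 3.57. The ratios of Lats2 were 3.93, 1.92, 3.74 and 3.00, and those of Tead4 were 2.37, 2.08, 1.93 and 2.15. Ajuba had ratios of 2.57, 1.75, 2.24 and 2.17 and Amotl2 of 1.84, 1.71, 2.46 and 1.73. Yap1 was level between the classes, with ratios of 0.927, 0.960, 0.948 and 1.07 whose intervals all included 1. Tead1 had ratios of 1.22, 0.626, 1.23 and 1.00, so that in WT TNF it was lower in Progenitor.2.

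**Figure D2:**
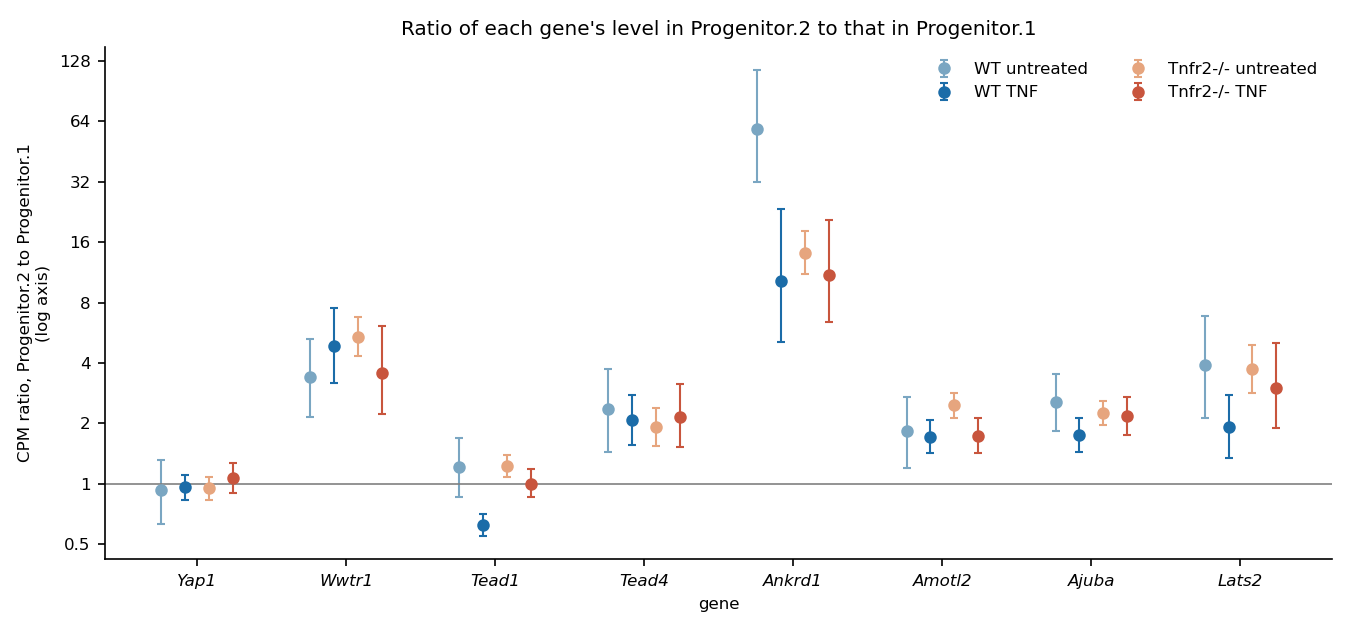
Ratio of the CPM level in Progenitor.2 to that in Progenitor.1 (log axis) for 8 of the 9 genes in each library, with exact 95% intervals for the ratio. Axl is left out because it had at most 14 UMIs in any of these sums. Yap1 lies on the line of equal levels, Ankrd1 lies between 10.2 and 58.8, and Wwtr1, Tead4, Amotl2, Ajuba and Lats2 lie above 1 in all 4 libraries.

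At the minimum of 20 CPM only Yap1 and Tead1 could be counted between these classes, and neither was past 2-fold in all 4 libraries, where 6.52% of the 5598 genes tested were higher and 8.36% lower in Progenitor.2. At a minimum of 5 CPM, Wwtr1 and Ankrd1 were past 2-fold in all 4 libraries, as were 5.78% of 9150 genes. For a gene that reaches a minimum only through 1 class, the direction is fixed, though not the size, so these counts were not read further. Of the 50 UMIs of Ankrd1 in WT untreated Progenitor.2, 26 lay in 1 of the 6 cells that had any, and without it the level was 14.8 CPM. In WT TNF the level without the richest cell was 2.31 CPM, and in untreated Tnfr2-/- Progenitor.1 it was 0.986 CPM.

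For Wwtr1, Ankrd1, Lats2 and Tead4, the higher level of Tnfr2-/- epithelium with TNF was not seen within either progenitor class. For Wwtr1 the TNF ratio in Tnfr2-/- was 1.69 (1.46 to 1.95) over the epithelium but 0.962 (0.553 to 1.58) within Progenitor.1 and 0.634 (0.534 to 0.755) within Progenitor.2. For Ankrd1 the same ratio was 2.96 (2.63 to 3.33) over the epithelium, 1.10 (0.560 to 1.98) within Progenitor.1 and 0.849 (0.747 to 0.966) within Progenitor.2. Lats2 and Tead4 had ratios of 2.22 and 1.66 over the epithelium. They had 1.25 (0.724 to 2.04) and 0.951 (0.645 to 1.36) within Progenitor.1, and 1.00 (0.807 to 1.25) and 1.06 (0.877 to 1.30) within Progenitor.2. The 83.4% of epithelial cells in Progenitor.2 in Tnfr2-/- TNF, against 22.8% in untreated Tnfr2-/-, moved with these sums. Amotl2 (1.58, 1.27 to 1.94) was still higher with TNF within Progenitor.1 of Tnfr2-/-, and Ajuba (1.18, 1.05 to 1.34) within Progenitor.2.

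A higher level in Tnfr2-/- beyond counting error was seen within both progenitor classes for Yap1 and Amotl2 untreated, and for Wwtr1, Ankrd1, Amotl2 and Ajuba with TNF. Among all genes with at least 5 CPM in 1 genotype of each class, 13.8% of 8778 met this condition untreated and 14.2% of 8687 with TNF. Of the 9 genes, 5 reached that minimum untreated and 5 with TNF, and 2 met the condition in each case. With TNF these were Amotl2 and Ajuba, since Wwtr1 and Ankrd1 lay under the minimum in Progenitor.1 and do not belong beside that share. Yap1 untreated was 1.53 times as high (1.38 to 1.69) in Progenitor.1 and 1.56 times as high (1.09 to 2.31) in Progenitor.2. Wwtr1 with TNF was 2.14 times as high (1.12 to 3.96) in Progenitor.1 and 1.57 times as high (1.26 to 1.98) in Progenitor.2. Amotl2 was higher in Tnfr2-/- by 1.50 (1.28 to 1.75) and 1.90 times (1.49 to 2.41) in Progenitor.1, untreated and with TNF, and by 2.00 (1.36 to 3.06) and 1.92 times (1.68 to 2.21) in Progenitor.2. Ajuba with TNF was higher in Tnfr2-/- by 1.73 times (1.34 to 2.22) in Progenitor.1 and 2.14 times (1.86 to 2.46) in Progenitor.2. Ankrd1 with TNF was higher by 5.14 times (2.03 to 13.6) in Progenitor.1 and 5.53 times (4.29 to 7.24) in Progenitor.2. The first of these rests on 13 UMIs against 9, each in 7 cells, and without the richest cell the Tnfr2-/- TNF level of 2.54 CPM was 1.39 CPM. In untreated Progenitor.2 the Ankrd1 levels of the genotypes did not differ beyond counting error (ratio 1.10, interval 0.818 to 1.52). This rests on 1 WT cell with 26 of the 50 UMIs. Without the richest cell of each sum the levels were 14.8 CPM in WT and 29.3 CPM in Tnfr2-/-. In WT, Ankrd1 in Progenitor.2 was lower with TNF, at 0.169 times the untreated level (0.115 to 0.250), a comparison that rests on the 6 untreated and 13 treated cells with any UMI.

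**Figure D3:**
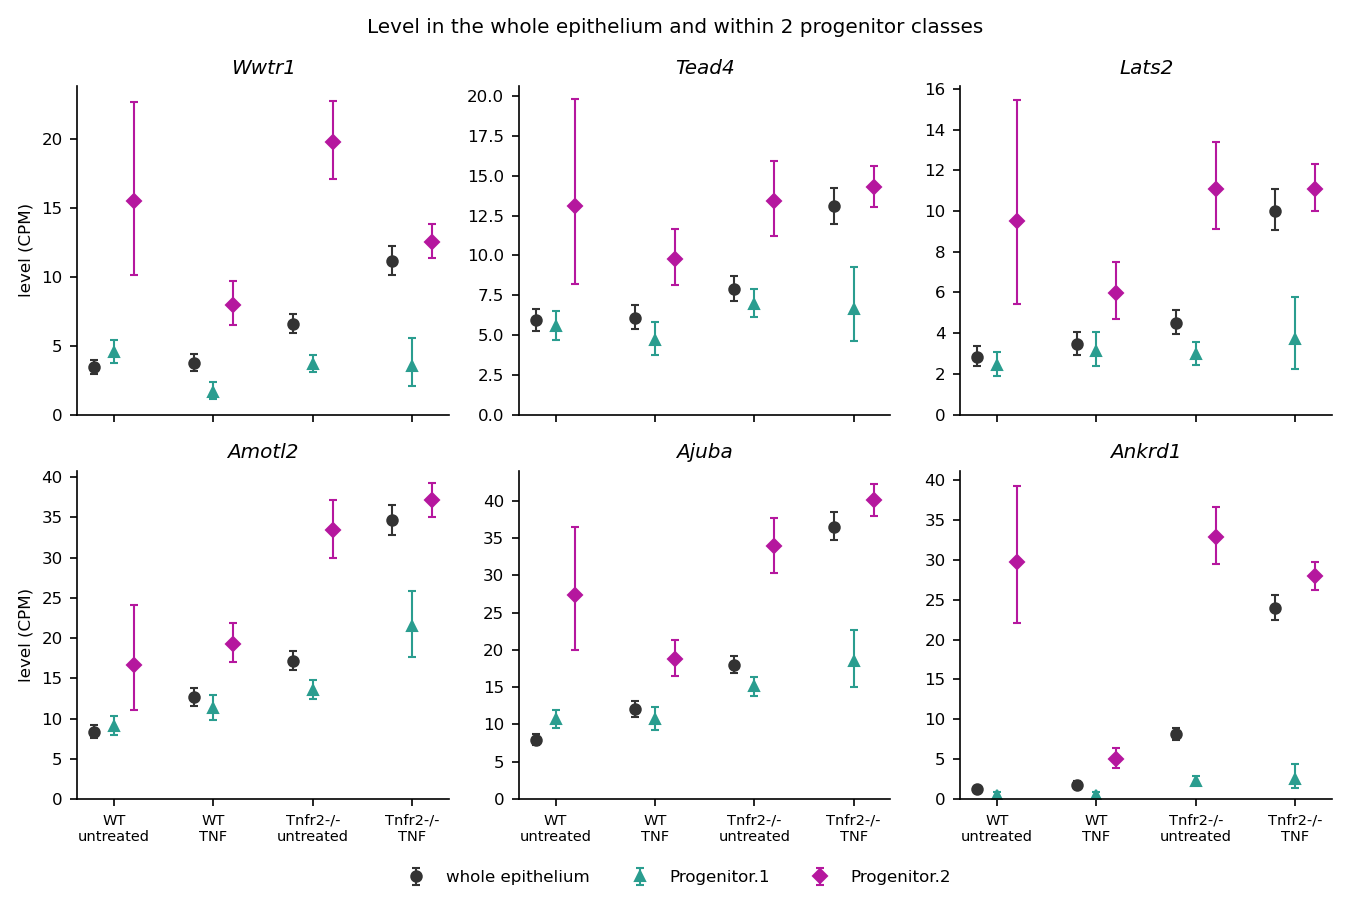
Level in CPM of 6 genes in the whole epithelium (circles), Progenitor.1 (triangles) and Progenitor.2 (diamonds) of each library, with 95% Poisson intervals. The whole epithelium lies near Progenitor.1 in WT untreated, where Progenitor.2 holds 5.50% of the cells, and near Progenitor.2 in Tnfr2-/- TNF, where it holds 83.4%.

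Over the whole epithelium no gene of the 9 was counted as different for genotype or for TNF. In each comparison only Yap1 and Tead1 reached 20 CPM in both pairs. Among all genes, 1.13% were higher and 1.41% lower in Tnfr2-/- of 5663 tested, and 0.92% were higher and 0.0721% lower with TNF of 5545 tested. At a minimum of 5 CPM, Ankrd1 and Ajuba were higher in Tnfr2-/- in both pairs, as were 1.56% of 9410 genes. Ankrd1 reached that minimum only through Tnfr2-/-, which fixed the direction of its difference, though not the size. Amotl2 missed 2-fold narrowly in the untreated pair, with log2 differences of 0.96 and 1.38, and the other genes had differences of 0.78 and 1.35 (Wwtr1), 0.52 and 1.31 (Lats2), 0.36 and 0.99 (Tead4), 0.70 and 0.32 (Yap1) and 0.72 and 0.01 (Tead1). For Tead1 with TNF the ratio of 1.01 had an interval of 0.937 to 1.09. The pairs for genotype and those for TNF are made of the same 4 libraries and are not independent of each other.

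With TNF the epithelial log2 differences in WT and then in Tnfr2-/- were 0.41 and 0.03 for Yap1, 0.10 and 0.68 for Wwtr1, 1.03 and 0.32 for Tead1, and 0.04 and 0.66 for Tead4. They were 0.30 and 1.46 for Ankrd1, 0.55 and 0.97 for Amotl2, 0.54 and 0.98 for Ajuba, and 0.21 and 1.00 for Lats2. Axl, at 1.21 CPM or less, had 0.75 and 0.35, on 16 and 50 UMIs in WT and 4 and 15 in Tnfr2-/-. Its level went from 0.318 to 1.21 CPM in WT and from 0.0790 to 0.377 CPM in Tnfr2-/-. At such levels the 1 CPM added before the log shapes the differences of Axl, so they were not ordered. Yap1 and Tead1 had the larger difference in WT and the remaining 6 genes in Tnfr2-/-. This contrast between genotypes cannot be tested with 1 library per group. Within Progenitor.1 the TNF ratio of Tead1 was 2.26 in WT (2.02 to 2.52) and 1.29 in Tnfr2-/- (1.09 to 1.52), and within Progenitor.2 it was 1.16 (0.834 to 1.65) and 1.06 (0.932 to 1.20).

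**Figure D4:**
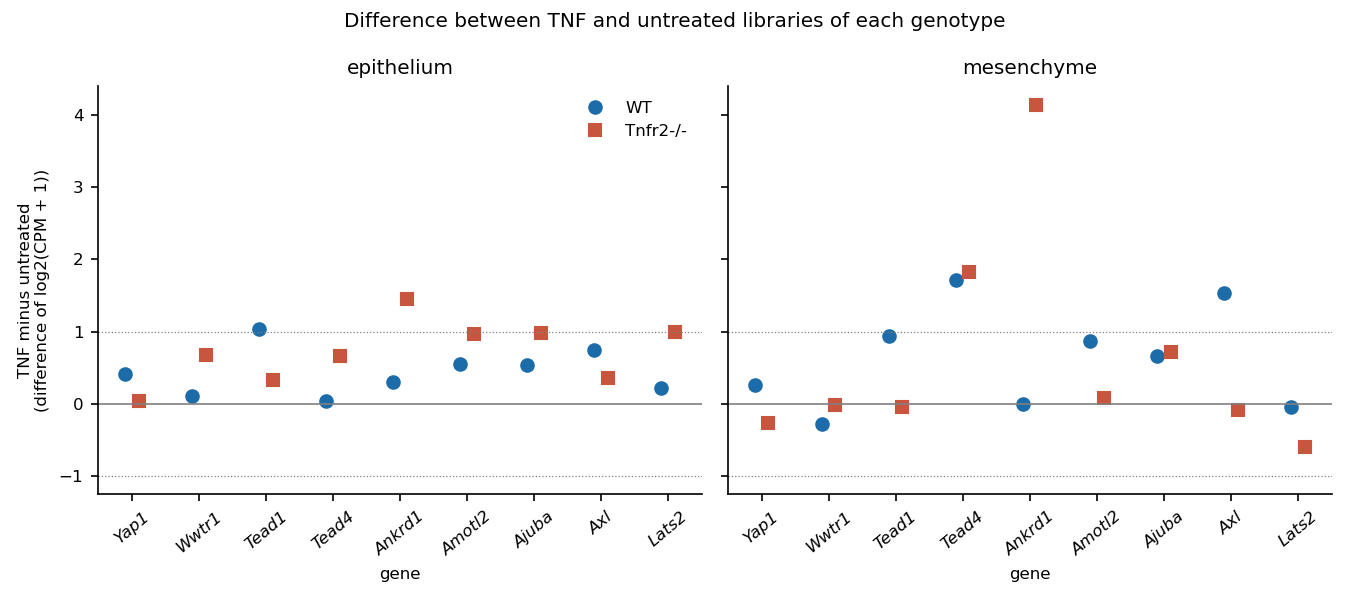
Difference of log2(CPM + 1) between the TNF and the untreated library of WT (circles) and Tnfr2-/- (squares) for the 9 genes, in epithelium (left) and mesenchyme (right). Dotted lines mark a 2-fold difference. In mesenchyme Tead4 lies at 1.71 and 1.82, whereas Tead1, Amotl2 and Axl lie at 0.86 to 1.53 in WT and at -0.09 to 0.08 in Tnfr2-/-. The Tnfr2-/- value of Ankrd1 in mesenchyme, 4.15, rests on 5 cells.

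In mesenchyme, again no gene of the 9 was counted as different for genotype or TNF among the 6 that reached the minimum. Over all genes, 1.67% were higher and 1.4% lower in Tnfr2-/- of 5935 tested, and 2.77% were higher and 3.51% lower with TNF of 5956 tested. At a minimum of 5 CPM, Tead4 was higher with TNF in both genotypes, as were 2.89% of 9731 genes. It reached that minimum only through the TNF libraries, which fixed the direction of its difference, though not the size. Axl, Tead1 and Amotl2 were higher with TNF in WT by 1.53, 0.93 and 0.86 on the log2 scale, where the Tnfr2-/- differences were -0.09, -0.05 and 0.08. Axl stood in opposite order between genotypes in the 2 treatments. Untreated it was 1.90 times as high in Tnfr2-/- as in WT (1.74 to 2.06), and with TNF 0.613 times as high (0.577 to 0.650).

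These mesenchymal values were set beside those of single classes, since the class named after Ifitm1 was almost wholly in WT untreated. In the class named after Ptges, the one class with at least 34 cells in every library, Axl had 158 (118 to 206), 447 (436 to 458), 192 (164 to 224) and 273 (258 to 288) CPM. There the TNF ratio was 2.84 in WT (2.17 to 3.78) and 1.42 in Tnfr2-/- (1.20 to 1.68), and the untreated genotype ratio was 1.22 (0.890 to 1.69). Tead1 in this class had 117, 212, 102 and 104 CPM, with a TNF ratio of 1.81 in WT (1.33 to 2.54) and 1.02 in Tnfr2-/- (0.811 to 1.30). Tead4 there had 2, 208, 5 and 74 UMIs, and its TNF ratios were 2.44 in WT (0.666 to 20.3) and 2.58 in Tnfr2-/- (1.06 to 8.19). In the class named generic, untreated Tnfr2-/- had 355 CPM of Axl against 138 CPM in WT, a ratio of 2.57 (2.31 to 2.87). The untreated genotype difference of Axl thus exceeded counting error in the generic class and not in the Ptges class, where 34 WT cells with a median of 5755 UMIs were measured.

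The remaining epithelial classes had little of most targets. Ankrd1 had 0 or 1 UMI in every sum of at least 20 cells of Progenitor.3, absorptive, secretory and enteroendocrine cells. Yap1 was near its epithelial level in most of these, at 14.8 CPM in absorptive cells of WT untreated, 18.7, 21.7 and 23.4 CPM in secretory cells with Reg4, Spdef and Lyz1, and 12.9 to 30.2 CPM in Progenitor.3. Enteroendocrine cells, the hormone-producing cells of the gut, were apart from these. With 18 to 33 cells per library they had 4, 3, 3 and 0 UMIs of Yap1, or 6.10 (1.66 to 15.6), 3.45 (0.711 to 10.1), 5.47 (1.13 to 16.0) and 0 CPM, the last allowing up to 6.15 CPM at 3 counts. Tead1 had 57.9 (41.0 to 79.5), 48.3 (34.8 to 65.3), 65.7 (46.0 to 90.9) and 73.8 (51.7 to 102) CPM in the same cells, above its level in Progenitor.1 in each library, although in WT TNF the intervals overlapped. Wwtr1 had 1, 0, 0 and 0 UMIs there, and Amotl2 had 14.4 to 25.3 CPM.

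**Figure D5:**
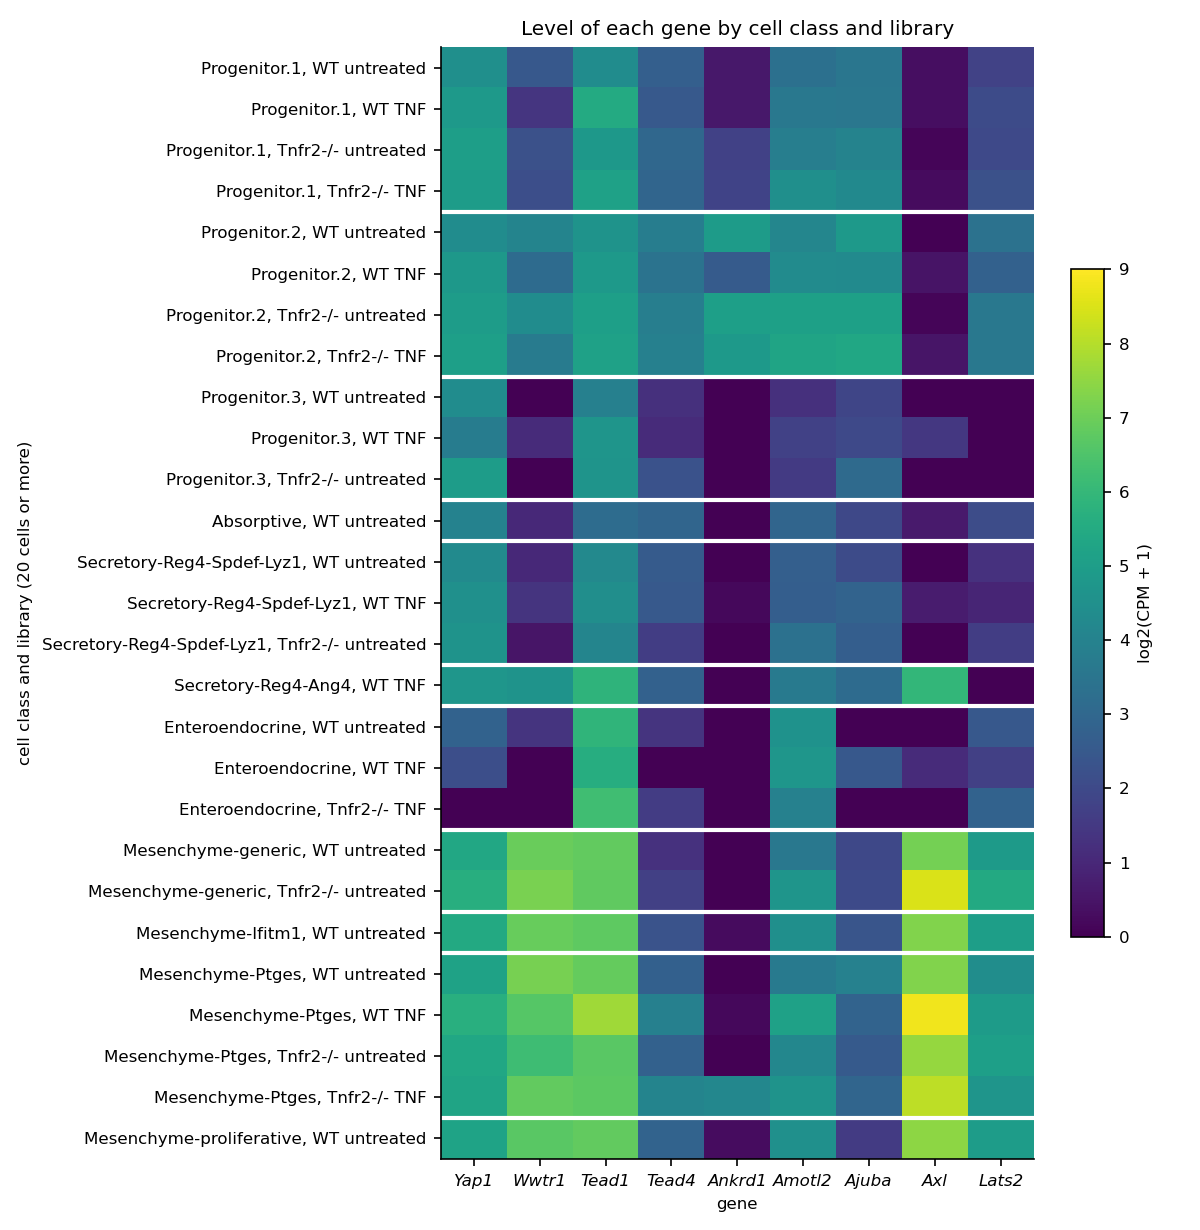
Heat map of log2(CPM + 1) for the 9 genes (columns) in each cell class and library with at least 20 cells (rows). Ankrd1 is highest in Progenitor.2 and in the Ptges class of Tnfr2-/- TNF, where it rests on 5 of 122 cells. Axl and Wwtr1 mark the mesenchymal rows, and Axl also the Secretory-Reg4-Ang4 row. Wwtr1 in that row (23.5 CPM) is near its level in Progenitor.2 of untreated Tnfr2-/- (19.8 CPM). The enteroendocrine rows have high Tead1 beside low Yap1.

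The single class Secretory-Reg4-Ang4, present in WT TNF alone, had 60.8 CPM of Axl (41.3 to 86.3), 23.5 CPM of Wwtr1 (12.2 to 41.1) and 56.9 CPM of Tead1 (38.1 to 81.7). These levels lay between those of the other epithelial classes and of the mesenchyme of that library. The part of mesenchymal RNA in them was not tested.

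The share of cells with a UMI was taken after thinning each cell to 5000 UMIs, to set libraries of different depth side by side. Shallower cells were left out, 43, 290, 33 and 12 of the epithelial cells and 2 to 13 of the mesenchymal cells, and the median depth of Secretory-Reg4-Ang4, found in WT TNF alone, lies under that limit. For Wwtr1 it was 1.38%, 1.83%, 3.13% and 4.61% of epithelial cells and 38.9% to 45.0% of mesenchymal cells. Without thinning the epithelial shares were 9.57%, 7.39%, 17.5% and 23.1%. Yap1 was seen in 7.56%, 10.1%, 13.6% and 14.2% of thinned epithelial cells and in 49.6%, 44.3%, 66.5% and 63.4% of unthinned ones. Ankrd1 was seen in 0.369%, 0.458%, 2.32% and 6.26% of thinned epithelial cells and in 0.00% to 0.833% of mesenchymal ones. It was seen in no enteroendocrine cell, of 31 in WT untreated, which at 3 cells allows up to 9.68% of cells with a UMI at this depth. As a measure of free RNA, Axl was seen in 48.5% to 86.9% of mesenchymal cells and in 0.00% to 0.458% of epithelial cells. In WT TNF both Axl and Ankrd1 were seen in 0.458% of epithelial cells, and in WT untreated Ankrd1 was seen in 4 of 1085 cells and Axl in none. Median depths were 30306 to 41057 UMIs in epithelial cells and 22642.5 to 48633 UMIs in mesenchymal cells.

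Of 28 other Hippo pathway genes, 13 were tested for genotype in epithelium and 12 for TNF, and none was past 2-fold in both pairs in either direction. Their median log2 differences were 0.29 and 0.23 for genotype, beside 0.10 and -0.12 over all genes tested, and 0.24 and 0.22 for TNF, beside 0.04 and -0.14. In mesenchyme 18 and 19 were tested and none was past 2-fold. The 4 with the highest mean levels were the kinase genes Map4k4, Taok3 and Taok1 and the protocadherin gene Fat1. Map4k4 had 26.8, 57.3, 51.3 and 79.7 CPM in epithelium and 136, 210, 164 and 192 CPM in mesenchyme. Taok3 had 76.7, 91.5, 97.9 and 150 CPM, Fat1 65.8, 96.6, 80.1 and 103 CPM and Taok1 43.3, 57.1, 55.9 and 76.9 CPM in epithelium, each highest in Tnfr2-/- TNF. Taok3 was highest in Tnfr2-/- TNF within both progenitor classes too. Map4k4 and Taok1 were so within Progenitor.2, but were highest in WT TNF within Progenitor.1. Some of these orders were close, and no interval is given for them. In Progenitor.1 Taok3 had 90.1 CPM in Tnfr2-/- TNF and 88.8 CPM in untreated Tnfr2-/-. Taok1 there had 52.5 CPM in WT TNF and 51.9 CPM in Tnfr2-/- TNF. Map4k4 in Progenitor.2 had 83.7 CPM in Tnfr2-/- TNF and 80.5 CPM in untreated Tnfr2-/-. Fat1 had 174, 158, 137 and 110 CPM within Progenitor.2 and 53.9, 75.8, 68.1 and 63.6 CPM within Progenitor.1. The part of the class mix in these sums was not tested.

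Of 20 other YAP and TEAD targets, 9 were tested for genotype in epithelium and none was past 2-fold in both pairs. Of 10 tested for TNF, 1 was higher, F3 (tissue factor, which starts blood clotting), at 119, 322, 200 and 675 CPM, and none was lower. F3 had 99.2, 162, 127 and 138 CPM within Progenitor.1 and 561, 680, 466 and 771 CPM within Progenitor.2. With TNF it was thus under 2-fold higher in each class and genotype, and the part of the class mix was not tested. The median differences of the list were 0.11 and 0.47 for genotype and 0.25 and 0.83 for TNF. Myof, a ferlin of membrane repair, had 101, 120, 173 and 242 CPM in epithelium. Cyr61 (CCN1, a matricellular protein) had 45.1, 117, 113 and 80.1 CPM there, so it was highest in WT TNF and not in Tnfr2-/- TNF. In mesenchyme 1 of 12 genes was lower in Tnfr2-/- in both pairs, the mitotic gene Birc5, at 63.6, 72.0, 17.5 and 9.43 CPM, and 2 of 12 were lower with TNF in both genotypes. These were Ccdc80, a matrix protein gene, at 250, 92.7, 467 and 198 CPM and Rbms3, an RNA-binding protein gene, at 74.3, 36.2, 97.8 and 31.6 CPM. Birc5 is also a marker of cycling cells, and the 4 cycling markers together had 283, 316, 95.5 and 88.4 CPM in mesenchyme. Their part in the Birc5 difference was not tested.

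In Progenitor.2 against Progenitor.1, 4 of 9 tested targets were past 2-fold higher in all 4 libraries, and these 4 are named because of their values: Nt5e, F3, Ctgf (CCN2) and Dock5. Nt5e and Dock5 reached 20 CPM only in Progenitor.2, which fixed the direction of their difference, though not the size. Ctgf had 160, 89.3, 165 and 179 CPM in Progenitor.2 and 57.2, 28.6, 37.5 and 59.3 CPM in Progenitor.1. Birc5 was past 2-fold lower in all 4 libraries, and no other tested target was. The list's median differences were 1.46, 1.61, 1.26 and 1.58, beside -0.15 to -0.07 over all genes tested. These medians include Nt5e, Dock5 and Asap1, which reached 20 CPM only in Progenitor.2 and had to be higher there. They also include Birc5, which reached it only in Progenitor.1 and had to be lower in Progenitor.2. The medians were therefore not read further. Cyr61, for its part, had differences of -0.67, -0.20, -0.65 and -0.02. Of the 13 other Hippo pathway genes tested, none was past 2-fold in all 4 libraries in either direction, with medians of 0.14 to 0.42.

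The 8 immediate-early genes, which are known to respond to dissociation, summed to 2287, 3480, 2337 and 2300 CPM in epithelium and to 1169 to 1332 CPM in mesenchyme. They were highest in the epithelium of WT TNF, where Tead1 and Cyr61 also stood high, though not only there. Tead1 had 34.3 CPM in WT TNF and 34.6 CPM in Tnfr2-/- TNF. Cyr61 had 117 CPM in WT TNF and 113 CPM in untreated Tnfr2-/-. The part of the immediate-early response in those levels was not tested.

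The genes whose levels were most like each factor over 22 sums of a class and library with at least 50 cells were then listed, by Pearson's correlation of log2(CPM + 1) among 9196 genes. The sums share libraries and mostly separate epithelium from mesenchyme, and for this reason r is a description. For Yap1 these included Prrc2b (r = 0.92) and Parp8 (0.91). For Wwtr1 they were Arhgap23 (0.98), Col18a1 (0.98) and Vat1 (0.98), and for Tead1 Csf1 (0.96), Nedd4 (0.96) and Epn2 (0.95). For Tead4 they were Nabp1 (0.88), Rasa2 (0.88) and Yy1 (0.85), and for Ankrd1 Isg20 (0.94), Plet1 (0.94) and Prl2c3 (0.91). Among the 9 genes themselves, Wwtr1, Tead1 and Axl had pairwise r of 0.88 to 0.90, Ankrd1 had 0.81 with Ajuba and 0.74 with Tead4, and Ankrd1 had 0.10 with Yap1 and -0.02 with Tead1.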

How the data were processed

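Cells were profiled from 4 colonic organoid cultures, 1 library per group. The authors deposited a matrix of raw UMI counts per gene and cell, with a class for most cells. Per the submitters' processing notes, Cell Ranger 5.0.0 and mm10 were used, and per the methods cells under 100 UMIs had been removed. The methods also name a removal of epithelial-mesenchymal doublets, together with that of the mesenchymal clusters. The deposited matrix still holds the mesenchymal cells, so it is not known whether the doublets were taken out of it. No doublet caller was run here. Each cell's library came from the deposited cell table. For each class or compartment of a library the counts of its cells were added up and scaled to CPM. Intervals were exact Poisson intervals for levels, exact conditional binomial intervals for ratios and Clopper-Pearson intervals for shares, at 95%. The text names the 9 genes, the 4 highest and every called gene of both lists, and the 3 most alike genes, with others said to be chosen by value. One gene that this rule names is not reported here. The genes and lists were chosen with earlier results of these data known. The counting of calls was tested on simulated data. Positions came from GENCODE M21 and promoters from RefSeq, both on GRCm38. Alternatives used TMM factors from edgeR 4.0.16 and size factors from DESeq2 1.42.0; the rest ran in Python 3.11.15 with scipy 1.17.1. The 3 barcodes found in more than 1 library were kept. Totals of 44547639 to 87228093 UMIs per library set the precision.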

Additional observations from a re-analysis of the deposited data

Results flagged for a closer look

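Axl in mesenchyme was singled out because its genotype difference had opposite signs in the 2 treatments, each beyond counting error. The log2 difference, Tnfr2-/- minus WT, was 0.92 untreated and -0.70 with TNF. The difference between these was not tested, since each group had 1 library. The mesenchymal class mix moved with it, as 62.4% of the WT untreated cells were of the class named after Ifitm1, and within the class named after Ptges the untreated ratio was 1.22 with an interval that included 1.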

How the results depend on the processing

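Counts of genes past 2-fold were recomputed under pseudocounts of 0.1 and 10 CPM, TMM and median-of-ratios scaling, other minimum levels, deeper cells, means over cells, cells without mixed markers and other choices of classes. Of 130 such counts, 124 stayed within 1.5 times the count given. The 6 others came from the minimum level: with a minimum of 5 CPM, and likewise with none, 2 genes were higher in Tnfr2-/- epithelium (Ankrd1 and Ajuba), 1 was higher with TNF in mesenchyme (Tead4) and 2 were higher in Progenitor.2 (Wwtr1 and Ankrd1), in place of 0. The count of 4 higher in mesenchyme was 3 with a pseudocount of 10 CPM, without Lats2. Of 1188 log2 differences of single genes under alternatives, 950 moved by no more than the counting error (the half-width of the interval), as did 129 of 144 levels, and 109 of 360 shares of cells stayed within their interval when not thinned or thinned to 2000 UMIs. The TNF difference of Ankrd1 in Tnfr2-/- epithelium, 1.46, reversed to -0.20 with Progenitor.1 and Progenitor.2 weighted equally and to -0.23 in Progenitor.2 alone, settings that by construction remove the change in class mix. Median-of-ratios scaling placed the median of all genes between -0.14 and 0.10 in the 16 pairs, against -0.20 to 0.10 for CPM. Over all genes, the counts of higher and lower genes that set the background moved more than 1.5 times under some settings. For genotype in epithelium, 64 higher and 80 lower became 147 and 166 at a minimum of 5 CPM and 204 and 261 with none, 32 genes were higher with a pseudocount of 10 CPM, 38 were higher with equal progenitor weights, and 21 and 37 were counted in Progenitor.1 alone. For TNF in epithelium, 51 higher became 98 at 5 CPM, 131 with no minimum and 16 to 22 with the progenitor settings, and 4 lower became 0 to 27. For genotype in mesenchyme, 99 higher became 158 at 5 CPM, 217 with no minimum and 180 in the Ptges class alone, and 83 lower became 36 with a pseudocount of 10 CPM, 54 with median-of-ratios factors, 204 at 5 CPM and 280 with no minimum. For TNF in mesenchyme, 165 higher and 209 lower became 281 and 338 at 5 CPM, 361 and 416 with no minimum, and 97 and 81 in the Ptges class alone. Between mesenchyme and epithelium, 867 and 613 became 1479 and 1061, and 1948 and 1363 with no minimum. Between Progenitor.2 and Progenitor.1, 365 higher became 639 with no minimum, and 468 lower became 825 at 5 CPM, 927 with no minimum and 308 with a pseudocount of 10 CPM. The cause was not tested beyond the number of genes and cells each setting admits. No paired analysis was possible because each group had 1 library, and the comparisons of classes were made within each library, without a test. Depth limited Ankrd1 and Axl most, with 5 UMIs or fewer in several sums.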
